A study of Homo sapiens with 12 samples.

Results

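Raji cells in which CREM was targeted were compared directly with Raji cells in which MS4A1, the gene for CD20, was targeted. The comparison used 5 of the 12 arrays of the series. It covered 11495 of the 20046 genes with a named probe on the array: those detected (detection p-value under 0.05) on at least 2 of the 5 arrays, each represented by its brightest probe. Raji is an established B cell line from a human Burkitt lymphoma that displays CD20. All cells were infected with a vector carrying a short hairpin RNA (shRNA), which lowers the messenger RNA it matches, were kept in puromycin for 48 h to remove uninfected cells, and gave total RNA on day 3. The shCREM group held hairpins A and B and the shMS4A1 group hairpins A, B and C, with 1 array for each hairpin. A hairpin is therefore the replicate, no hairpin was measured a second time, and nothing in the labels says whether cultures were separate, so p-values measure only the spread between these arrays. The arrays of both groups carry the same label style and form 1 set with a single array of a non-targeting hairpin, shNTC, which entered no test and is given as a description.

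CD20 is a membrane protein of B cells and the target of rituximab and related antibodies. CREM belongs to the CREB family of transcription factors, which bind the cAMP response element (CRE) in promoters. Its gene encodes activators as well as repressors, among them the inducible repressor ICER, and in lymphocytes the family takes part in responses to cAMP and to antigen receptor signals. Setting 2 knockdowns against each other leaves out what infection, puromycin and hairpin expression do in both. The difference alone does not say on which side a gene moved.

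The promoters of 3 of the 4 genes by which the comparison is marked are shown, because they hold motifs that the results return to: CCNA2 (cyclin A2, which drives DNA replication and entry into mitosis) and RRM2 (the regulated subunit of ribonucleotide reductase) were lower under shCREM, and RGS1 (a brake on signalling by chemokine receptors) was higher. Each is the stretch of 250 bases before the start of transcription in RefSeq, build GRCh38.p14, written along the gene's own strand. Capitals mark the CRE (TGACGTCA) and the inverted CCAAT box in CCNA2 (chr4:121823884-121824133, minus strand), the CCAAT boxes in RRM2 (chr2:10122489-10122738, plus strand) and a match to the kappaB consensus, the motif of NF-kB, in RGS1 (chr1:192575523-192575772, plus strand).
CCNA2: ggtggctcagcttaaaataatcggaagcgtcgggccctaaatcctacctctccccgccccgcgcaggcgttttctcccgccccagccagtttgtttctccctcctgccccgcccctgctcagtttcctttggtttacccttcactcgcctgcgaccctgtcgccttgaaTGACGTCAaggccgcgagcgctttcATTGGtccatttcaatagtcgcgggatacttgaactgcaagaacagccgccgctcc
RRM2: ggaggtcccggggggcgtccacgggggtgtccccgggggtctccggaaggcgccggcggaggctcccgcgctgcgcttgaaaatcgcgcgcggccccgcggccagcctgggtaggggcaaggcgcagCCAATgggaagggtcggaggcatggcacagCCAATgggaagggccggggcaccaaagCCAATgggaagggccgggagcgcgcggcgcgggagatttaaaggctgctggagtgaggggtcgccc
RGS1: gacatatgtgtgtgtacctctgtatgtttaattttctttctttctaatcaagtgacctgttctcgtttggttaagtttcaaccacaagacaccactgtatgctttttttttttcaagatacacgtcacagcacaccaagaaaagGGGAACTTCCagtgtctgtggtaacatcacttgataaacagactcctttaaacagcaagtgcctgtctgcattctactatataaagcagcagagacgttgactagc
The fourth gene, SLAMF1, which was also higher, held none of the 6 motifs searched in this window. The CRE of CCNA2 spans positions -81 to -74 before the start. The RRM2 stretch also holds kappaB matches farther from the start, which are not capitalised. Also left in small letters are the shorter form of the CRE (TGACG) in RGS1, on the opposite strand at -128 to -124, and GC boxes (GGGCGG) in CCNA2.

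The levels are log2 intensities after background correction and quantile normalization, on which 1 unit is a 2-fold change. The targeted genes were examined first, since they check the labels. MS4A1 read 8.92 and 9.01 log2 on shCREM A and B and 6.36, 6.23 and 6.40 on shMS4A1 A, B and C (probe ILMN_2401714). All 3 shMS4A1 arrays were low, and the groups were far apart. The difference was 2.63 ± 0.22 log2 (SE, 6.20-fold, n = 2 against 3, limma adjusted p = 0.000393). A second probe, ILMN_1776939, read 8.58 and 8.36 against 6.39, 6.37 and 6.38, and the third, ILMN_1697830, was near background with detection on 3 of the 5 arrays. The shNTC array read 8.31 and 7.59 log2 at the first and second probe, below both shCREM arrays and above every shMS4A1 array.

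CREM itself has a single named probe, ILMN_1745318, close to background. It read 4.59 and 4.31 log2 on shCREM A and B and 4.80, 4.60 and 4.75 on shMS4A1 A, B and C, and it was detected on neither shCREM array and on 2 of the 3 shMS4A1 arrays. Every shCREM value lay below every shMS4A1 value, as in 19.1% of all genes, by only 0.013 log2 at the nearest pair. In that pair, shCREM A and shMS4A1 B, neither array detected the probe, so the order of the 2 values cannot be read. The difference of -0.27 ± 0.26 log2 (95% interval -0.84 to 0.30) did not pass (limma adjusted p = 0.60). The probe thus gives little range in which a knockdown of CREM could be read, and shNTC, at 5.27 log2 and detected, was the highest of the 6 arrays.

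The labelled cell type was checked against its markers. Of 14 B cell markers with a named probe, 13 were detected on all 5 arrays, among them CD79A, CD79B, CD74 and HLA-DRA, and PAX5 was detected on none. Of 20 T and NK cell markers 12 were detected on no array, CD3E, CD4 and CD8A among them. The same held for 5 of 17 myeloid and 8 of 20 epithelial and fibroblast markers. Others were detected on all 5 arrays: IL7R of the T and NK list (also in the B lineage list), CD14, CD68, FCGR3A and AIF1 of the myeloid list, and COL1A1, ACTA2 and TAGLN of the epithelial and fibroblast list. Of the markers of other cell types, 6 of T and NK cells, 7 of myeloid cells and 6 of epithelium and fibroblasts entered the limma test. None passed it, and at an unadjusted p under 0.05 the numbers were 0, 1 and 2. Arrays of the set detected 19934 to 20483 of 48105 probes and had median raw intensities of 99.15 to 104.87.

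Between shCREM and shMS4A1, 552 of the 11495 genes differed at an adjusted p under 0.05 (4.80%, limma with Benjamini-Hochberg adjustment over all 11495). Of these, 240 were higher under shCREM (2.09%) and 312 lower (2.71%). The median difference was 1.09 log2 among the higher genes and -0.98 log2 among the lower ones. At least 2-fold differences were found for 153 higher and 145 lower genes. Without adjustment, 2400 of the 11495 genes had a limma p under 0.05, both directions together. Unadjusted counts for the gene lists below are to be read against that number. The groups did not overlap in any of the 552 genes, while over all genes 38.8% had groups that did not overlap. The median over all genes was 0.003 log2. The number of genes depended on single arrays: it was 98, 69 and 68 without shMS4A1 A, B or C, and 1203 without shCREM B, where the lone shCREM array is assumed to vary like the others. All 552 kept their direction in each of the 18 alternative analyses in which they were present. In many of these it could not have changed. Where groups do not overlap, leaving out 1 array cannot reverse a difference, and the intensity trend leaves the means as they are.

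**Figure D1:**
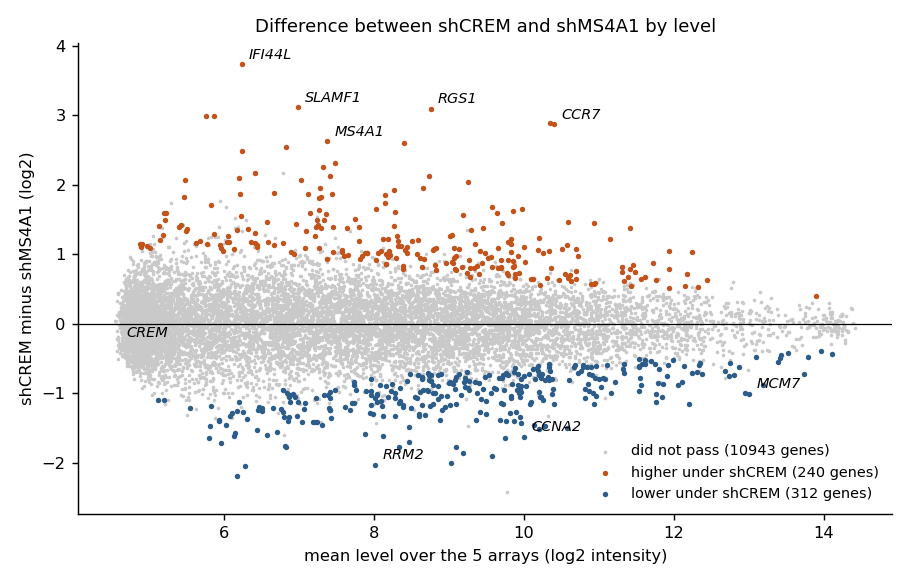
Each point is 1 of 11495 genes, with its mean level over the 5 arrays on the x axis (log2 intensity) and shCREM minus shMS4A1 on the y axis (log2). The 240 higher genes reach 3.74 log2 (IFI44L), the 312 lower genes reach -2.19 log2, and CREM sits at the left edge, near background.

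The gene with the largest difference was IFI44L, an interferon-induced gene. It read 8.99 and 7.98 log2 on shCREM A and B and 4.41, 5.47 and 4.36 on shMS4A1 A, B and C, where only array B detected it. The difference was 3.74 ± 0.40 log2 (limma adjusted p = 0.00142). Its dimmer second probe, ILMN_1835092, gave 0.57 log2 and did not reach the threshold, and this probe stood for the gene when detection on all 5 arrays was required. Next were SLAMF1, a receptor on activated lymphocytes that binds itself on neighbouring cells, and RGS1. SLAMF1 read 9.19 and 8.53 log2 against 6.57, 5.31 and 5.33. RGS1 read 10.62 on both shCREM arrays against 7.72, 6.84 and 8.0. In both genes the lowest shCREM array stood well above the highest shMS4A1 array, by 1.96 log2 for SLAMF1 and 2.62 log2 for RGS1. The differences were 3.12 ± 0.38 log2 for SLAMF1 (8.69-fold, limma adjusted p = 0.00249) and 3.10 ± 0.29 log2 for RGS1 (8.55-fold, limma adjusted p = 0.000757). Both passed in all 18 alternatives.

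The other genes of this rank were mostly secreted or on the cell surface. ADAMDEC1, a secreted metalloprotease, read 7.58 and 7.75 log2 against 4.45, 4.84 and 4.73, with detection on 1 of the 3 shMS4A1 arrays. FCRL4, an inhibitory Fc receptor-like protein of memory B cells, read 8.04 and 7.08 log2 against 4.31, 4.80 and 4.60, and was likewise detected on 1 shMS4A1 array. Both were near background under shMS4A1. CCR7, the receptor that guides lymphocytes into lymph nodes, read 12.36 and 11.91 log2 against 9.44, 8.90 and 9.43, a difference of 2.88 ± 0.20 log2 with the smallest p-value of any gene (limma adjusted p = 0.000235). The remaining members of the 12 largest were H2BC12, a histone H2B gene (2.90 log2), MS4A1, CD69 (2.60 log2), IFIT2 (2.54 log2), the long non-coding RNA LINC00158 (2.48 log2) and the chemokine CCL3 (2.32 log2).

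Among the lower genes the first 2 were histones, H2BC7 at -2.19 log2 and H3C8 at -2.05 log2. H2BC7 was detected on 1 of the 2 shCREM arrays. RRM2 read 6.43 and 7.18 log2 on shCREM A and B and 9.13, 8.99 and 8.36 on shMS4A1 A, B and C. The shCREM arrays were both below the lowest shMS4A1 array, and the difference was -2.02 ± 0.29 log2 (4.07-fold lower, limma adjusted p = 0.00523), which missed the threshold without shMS4A1 A (limma adjusted p = 0.0515) or B (0.0628). CCNA2 read 9.26 and 8.80 log2 against 10.56, 10.73 and 10.67, so that the shMS4A1 arrays lay close together. It was -1.62 ± 0.17 log2 (3.08-fold lower, limma adjusted p = 0.00142) and passed in all 18. The neuropeptide gene NMU (-2.01 log2), PVRIG, an inhibitory receptor of lymphocytes (-1.90 log2), and IMPA2, an inositol monophosphatase (-1.64 log2), also passed in all 18 and had some of the widest gaps between the groups. TK1, the thymidine salvage kinase (-1.86 log2), LIG1, the replicative DNA ligase (-1.77 log2), NREP (-1.77 log2), ATP6V1C1, a subunit of the vacuolar proton pump (-1.76 log2), the histone gene H3C13 (-1.75 log2), the globin gene HBB (-1.71 log2) and FAR1 (-1.71 log2) completed the 12 largest. The shCREM hairpins lay far apart in some of these: TK1 read 7.19 log2 on A and 8.95 on B, and NREP 9.02 and 7.05. FAR1 read 6.58 log2 on A and 8.31 on B, and H3C13 5.25 and 6.28. None of TK1, NREP, FAR1 and H3C13 passed in all 18 alternatives. HBB was detected on 1 of 2 shCREM arrays, and its shNTC level of 4.65 log2 was as low as on the shCREM arrays.

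**Figure D2:**
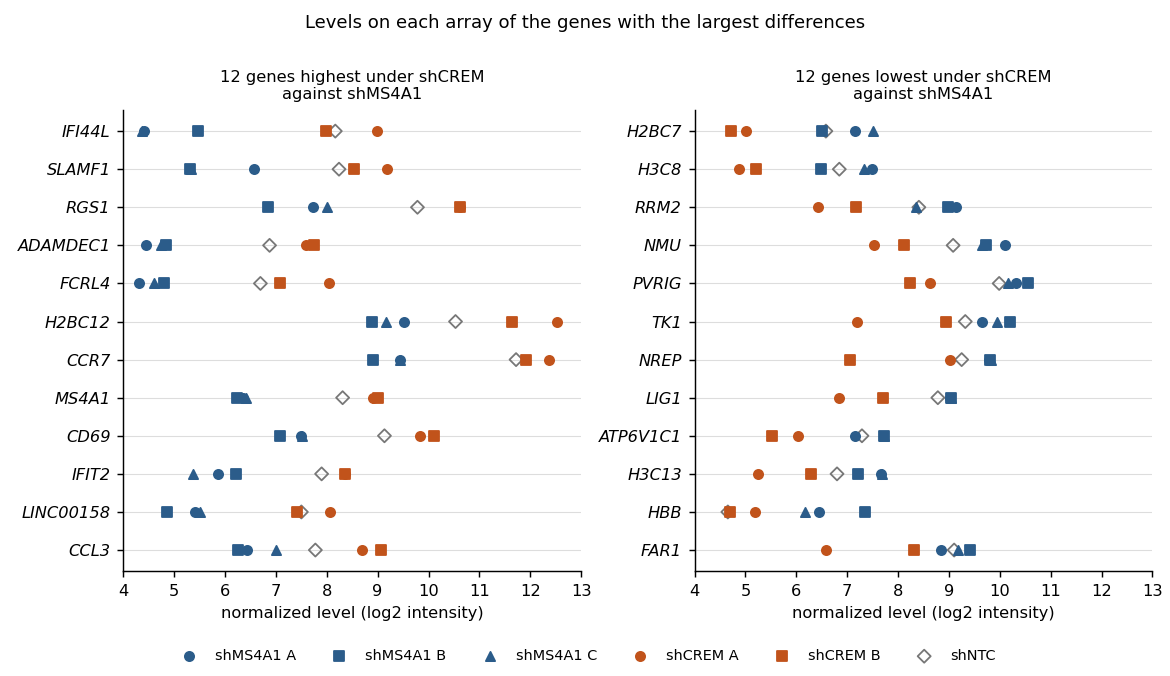
Normalized level (log2 intensity) on each array of the 12 genes with the largest positive and the 12 with the largest negative difference among those that passed. Orange marks are the 2 shCREM arrays, blue marks the 3 shMS4A1 arrays and open diamonds the shNTC array. The genes were chosen among those whose groups do not overlap, so no orange mark falls among the blue ones. The diamond of most higher genes lies between the groups.

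Genes of B cell activation were higher under shCREM than under shMS4A1. Here and below, "rose" and "fell" describe shCREM relative to shMS4A1 and do not say on which side a gene moved. CD69 (an early activation antigen), SLAMF1, CD83, CD48, CD86 (the ligand of CD28), IL21R and SLAMF6 rose, 7 of the 23 activation receptors and ligands measured, and none fell, against 2.09% and 2.71% of all genes. At an unadjusted p under 0.05 limma gave 13 higher and 0 lower. Groups did not overlap, with shCREM higher, in 16 of the 23, against 19.7% of all genes. CD69 read 9.83 and 10.10 log2 on shCREM A and B against 7.50, 7.09 and 7.52, a difference of 2.60 ± 0.21 log2 (limma adjusted p = 0.000393). CD83 was 1.14 ± 0.16 log2 and CD48, the ligand of the SLAM family receptor CD244, 1.05 ± 0.15 log2. The median of the 23 was 0.67 log2, and 20 were above 0. Without 1 array at a time between 5 and 10 of them passed, and without the intensity trend of the test 3 did. IL21R rests on its brightest probe, since 2 near background gave -0.30 and -0.66 log2. CD40 stood at 0.76 log2 and missed the threshold (limma adjusted p = 0.066).

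Of the targets of NF-kB, the transcription factor that follows CD40 and antigen receptor engagement, 10 of 34 rose and none fell. Over all genes 2.09% were higher and 2.71% lower. The median of the list was 0.52 log2 (16 higher and 0 lower at an unadjusted p under 0.05). The 10 that rose were MIR155HG, CCL3, TRAF1, PLEK, CD83, SQSTM1, LTA, CXCL10, TNFAIP3 and EBI3. MIR155HG, the host transcript of miR-155, read 10.18 and 9.84 log2 against 8.24, 7.78 and 7.65. TRAF1, an adaptor of tumour necrosis factor receptors, read 7.99 and 7.47 log2 against 5.76, 5.31 and 5.58. In both genes the shCREM arrays were apart from all 3 shMS4A1 arrays, by 2.12 ± 0.22 log2 for MIR155HG (limma adjusted p = 0.00142) and 2.17 ± 0.27 log2 for TRAF1 (limma adjusted p = 0.00287). The shNTC array read 10.03 log2 for MIR155HG and 7.82 for TRAF1, near the shCREM arrays. In all 10 targets that passed it was nearer the shCREM mean than the shMS4A1 mean. A second, dim TRAF1 probe, ILMN_2171789, gave 0.34 log2. CCL3 was 2.32 ± 0.27 log2, but it has near-identical copies (CCL3L1, CCL3L3) whose transcripts its probe may also catch. Without 1 array at a time between 6 and 14 of the list passed, the fewest without shMS4A1 C and the most without shCREM B, and 4 passed without the intensity trend.

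The array measured the host transcript and not the small RNA. The mature sequences that the MIR155HG transcript carries are printed, from RefSeq (GRCh38.p14), to show the seed, bases 2 to 8 in capitals, by which miR-155 chooses its targets. They lie at chr21:25573983-25574006 and chr21:25574022-25574043, both on the plus strand.
hsa-miR-155-5p: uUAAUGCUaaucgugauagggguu
hsa-miR-155-3p: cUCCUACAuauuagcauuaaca
The 2 arms have different seeds.

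Interferon-induced genes were also higher under shCREM. IFI44L, IFIT2, IFIT3, CXCL10, IFI6, IRF9, IFI44 and BST2 rose, 8 of 29 measured, and none fell, against 2.09% and 2.71% of all genes. The median was 0.58 log2, and 26 of 29 were above 0. At an unadjusted p under 0.05 limma gave 16 higher and 0 lower. IFIT2, which binds foreign RNA, read 8.35 and 8.36 log2 on shCREM A and B against 5.85, 6.21 and 5.37. IFIT3, its partner, read 7.26 and 7.44 log2 against 5.38, 5.56 and 5.49. CXCL10, a chemokine also held by the NF-kB list, read 8.42 and 8.50 log2 against 6.84, 5.84 and 6.81. The shMS4A1 arrays were all low in these 3 genes, and the differences were 2.54 ± 0.28, 1.87 ± 0.25 and 1.96 ± 0.31 log2 (limma adjusted p = 0.0015, 0.00375 and 0.00833). The shNTC array read 7.90 log2 for IFIT2, 7.59 for IFIT3 and 9.51 for CXCL10, within 0.5 log2 of the shCREM arrays or above them. Between 4 and 10 members passed without 1 array at a time, and 4 without the intensity trend. The signalling receptors listed with the JAK-STAT pathway, through which interferons and interleukins act, included 4 of 24 that rose (IL21R, IFNGR2, IL10RB and the kinase TYK2) and none that fell (6 and 0 at an unadjusted p under 0.05). The share that rose was 16.7%, against 2.09% of all genes.

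MHC class II genes, which present peptides to helper T cells, differed less in size. HLA-DMB, HLA-DRB3, HLA-DRB6, HLA-DQB1 and HLA-DMA rose, 5 of 20, and none fell, against 2.09% and 2.71% of all genes. The median was 0.48 log2 (12 higher and 1 lower at an unadjusted p under 0.05). HLA-DMB, part of the complex that loads peptides, read 11.98 and 11.95 log2 against 11.20, 10.98 and 11.17 (0.85 ± 0.13 log2, limma adjusted p = 0.00653). HLA-DQB1 was 1.41 ± 0.31 log2, and its shCREM arrays differed by 0.82 log2. Probes of the HLA-DRB genes can catch each other's transcripts, so these genes are not told apart with certainty. None of the list passed without shMS4A1 B or without the intensity trend of the test, and 8 did without shCREM B. In the class I list PSMB10 (an immunoproteasome subunit) fell by 0.69 log2 and none of the 20 rose (3 and 3 at an unadjusted p under 0.05). The share that fell was 5%, against 2.71% of all genes.

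The surface antigens of the B lineage moved in both directions. Of 24 measured, CCR7, FCRL3, CD22, CD72 and the targeted gene MS4A1 itself rose (20.8%, against 2.09% of all genes). CD81 and MME fell (8.33%, against 2.71%), and the median was 0.05 log2. FCRL3 was 1.87 ± 0.23 log2 and passed in all 18 alternatives. CD81, a tetraspanin, fell by 0.41 ± 0.09 log2 from 13.69, 13.67 and 13.70 to 13.27 and 13.28, the arrays within each group lying within 0.03 log2 of each other. CD79A and CD79B, the signalling chains of the B cell receptor, stood at -0.01 and -0.18 log2, short of the threshold. Of 20 chemokine receptors and RGS regulators, RGS1, CCR7 and RGS13 rose (15%, against 2.09% of all genes) and none fell. The median was 0.01 log2 (5 and 3 at an unadjusted p under 0.05). Of 21 genes of B cell receptor signalling only NFATC1 passed, at -0.88 log2 (4.76% lower, against 2.71% of all genes). The median of these 21 was 0.12 log2, and at an unadjusted p under 0.05 limma gave 4 higher and 1 lower.

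Cell cycle genes were lower under shCREM. Of 55 genes of the G1/S transition and DNA replication 23 fell and none rose, and of 74 genes of G2 and mitosis 26 fell and none rose, against 2.71% lower over all genes. At an unadjusted p under 0.05 limma gave 40 and 64 lower and 0 higher in both. The medians were -0.79 and -0.78 log2. The difference was below 0 in 54 of the 55 (E2F1 was 0.09 log2) and in 73 of the 74 (CKS2 was 0.02 log2), both exceptions named after their values were seen. The shCREM and shMS4A1 arrays did not overlap, with shCREM lower, in 43 and 60 members, against 19.1% of all genes. In bulk RNA, fewer cycling cells and less of these RNAs per cell cannot be told apart.

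Among the replication genes, GINS2 (a subunit of the replicative helicase complex) read 9.38 and 9.42 log2 on shCREM A and B against 10.82, 10.81 and 10.99. MCM7 and MCM5, subunits of the helicase itself, read 12.24 and 12.56 log2 against 13.24, 13.49 and 13.48, and 8.93 and 9.11 log2 against 10.16, 10.14 and 10.16. UNG, which removes uracil from DNA, read 8.96 and 9.64 log2 against 10.98, 10.76 and 10.69. The shMS4A1 arrays were close to each other and above both shCREM arrays in all of them. GINS2 was -1.47 ± 0.15 log2 (limma adjusted p = 0.000925), MCM7 -1.01 ± 0.13 log2 (0.00306), UNG -1.51 ± 0.20 log2 (0.0038) and MCM5 -1.13 ± 0.16 log2 (0.00452). The other members that fell included the polymerase genes POLD1, POLA1 and POLA2, the clamp PCNA, the licensing factors CDT1, MCM2 and MCM4, and the nucleotide synthesis enzymes RRM2, TYMS, TK1 and DUT.

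Of the mitotic genes, CCNA2 had the smallest p-value, followed by CENPM (a centromere protein, -0.96 ± 0.14 log2), KIF22 (a chromosome-bound kinesin, -1.28 ± 0.18 log2) and STMN1 (a microtubule destabiliser, -1.06 ± 0.17 log2). CENPM read 10.19 and 10.40 log2 against 11.28, 11.19 and 11.31. The kinase CDK1, its partners CCNB1 and CCNB2, the kinases PLK1 and AURKB and the checkpoint target CDC20 were among the others that fell. TOP2A (-0.84 log2, limma adjusted p = 0.059) and MKI67 (-0.61 log2, limma adjusted p = 0.31) missed the threshold. Of the 20 inhibitors of cyclin-dependent kinases and quiescence genes, only CDKN1A (p21) passed (5% higher, against 2.09% of all genes). It read 10.07 and 10.13 log2 against 8.37, 8.78 and 9.12, higher by 1.34 ± 0.22 log2 (limma adjusted p = 0.00885). Without shCREM A, shCREM B, shMS4A1 A, B or C, the replication genes that passed numbered 15, 41, 6, 4 and 6, and the mitotic ones 16, 60, 5, 2 and 2. Without the intensity trend they numbered 6 and 2. The medians of both lists stayed below -0.48 log2 in all of these.

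**Figure D3:**
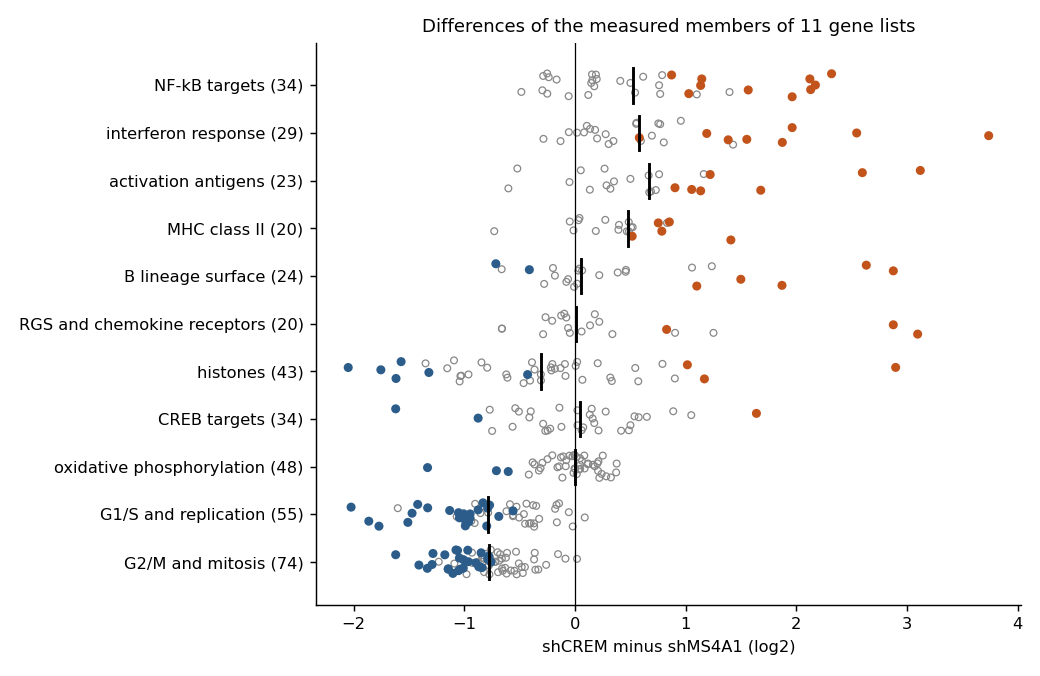
shCREM minus shMS4A1 (log2, x axis) for each measured member of 11 gene lists, with the number of members in brackets. Filled points passed the test (orange higher, blue lower), open points did not, and black bars are medians. The medians of the 4 upper lists lie at 0.48 to 0.67 log2, and those of both cell cycle lists at -0.79 and -0.78 log2.

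Histone genes moved in both directions. Of 43 replication-dependent histone genes, which are transcribed in S phase, H3C8, H3C12, H2BC9, H3C13, H3C7 and H4C3 fell and H2BC12, H2AC25 and H2AC18 rose. The shares were 13.95% lower and 6.98% higher, against 2.71% and 2.09% of all genes. H2BC7, the histone gene with the most negative difference named above (-2.19 log2), also fell but is not in this list or its counts. H2BC12 read 12.53 and 11.64 log2 against 9.51, 8.89 and 9.16, with shNTC between the groups at 10.53. H3C12 read 5.19 and 5.13 log2 against 6.68, 6.58 and 7.07. The median of the 43 was -0.31 log2. Most histone genes of a class are nearly alike in sequence, so a probe may catch several.

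In the other lists the counts of genes that passed are to be read against 2.09% higher and 2.71% lower over all genes. Unadjusted counts are to be read against 2400 of the 11495 genes, both directions together. BCL2, the survival protein, read 8.22 and 8.28 log2 against 6.56, 6.60 and 6.68, higher by 1.64 ± 0.22 log2 (limma adjusted p = 0.00375, all 18 alternatives). A further BCL2 family member that antagonises survival, PMAIP1 (NOXA), rose by 1.18 log2, and BNIP3L fell by 1.29 log2, out of 26 genes of apoptosis. Of 32 genes of hypoxia and glycolysis 5 fell (PFKL, BNIP3L, PGAM1, LDHA and TPI1) and SLC2A3, a glucose transporter, rose. Of 48 subunits of oxidative phosphorylation SDHA (-1.33 log2), ATP5F1D and NDUFV1 fell and none rose (9 and 3 at an unadjusted p under 0.05), with a median of -0.002 log2. Among 28 genes of amino acid and endoplasmic reticulum stress, PPP1R15A, WARS1 and SLC38A2 rose. Among 23 factors of B cell identity and the germinal centre, SERPINA9 and IRF8 rose, and MYBL1, ID3 and TCF3 fell. None of 15 plasma cell genes passed the limma test, while 6 were higher and 3 lower at an unadjusted p under 0.05. The lists of p53 targets (20), MYC targets and ribosome biogenesis (38) and cholesterol and fatty acid synthesis (28) held 2, 3 and 1 gene that passed, with medians of -0.03, -0.23 and 0.02 log2. In the MYC list 1 gene rose and 2 fell, and 30 of 38 were below 0. At an unadjusted p under 0.05 limma gave 1 higher and 11 lower there. Groups did not overlap in 23 of the 38 with shCREM lower and in 2 with shCREM higher, against 19.1% and 19.7% of all genes.

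Of 34 measured genes known to respond to CREB or CREM, BCL2 rose (2.94%, against 2.09% of all genes), CCNA2 and PCNA fell (5.88%, against 2.71%), and the median was 0.04 log2. All 3 are also in the survival or cell cycle lists. RefSeq promoters were matched for 9132 of the 11495 genes, 191 of the higher and 251 of the lower ones, and each motif was searched on both strands of the 250 bases before the start. The CRE (TGACGTCA) stood in 3.11% of all promoters, 2.62% of those of higher genes (5 promoters) and 3.98% of those of lower genes (10 promoters). In the whole lists, passed or not, it stood in 6.12% of 49 replication and 7.81% of 64 mitotic promoters, few in either. Its shorter form (TGACG), which any full CRE also contains, stood in 30.3%, 30.4% and 28.7%. The kappaB consensus stood in 11.4%, 13.1% and 13.9%, so the RGS1 match above is of a kind that many promoters carry. The CCAAT box (CCAAT) stood in 36.4%, 34% and 45%, and the GC box (GGGCGG) in 64.4%, 52.4% and 79.3%. The CHR motif of late cell cycle promoters (TTTGAA or TTCGAA) stood in 10.7%, 17.8% and 14.7%, so in more of the higher than of the lower genes. For the G2 and mitosis genes, whether they passed or not, the CHR stood in 51.6% and the CCAAT box in 68.8%. In the whole replication list the shares were 4.08% and 49%. These shares are descriptions. A match is not evidence that a factor binds, and the shares also follow base composition.

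The shCREM hairpins agreed less with each other than the shMS4A1 hairpins did. Across genes, the median absolute difference between shCREM A and B was 0.30 log2, between pairs of shMS4A1 arrays 0.20 to 0.23 log2, and between a shCREM and a shMS4A1 array 0.32 to 0.35 log2. Hairpin A was the farther from the shMS4A1 mean in 344 of the 552 genes. For the replication genes the median distance from the shMS4A1 mean was -0.97 log2 under hairpin A and -0.57 log2 under B, and for the mitotic genes -1.07 and -0.49 log2. For interferon genes hairpins A and B were alike, at 0.55 and 0.60 log2, whereas NF-kB targets stood at 0.61 and 0.20 log2. With 1 array a hairpin these differences have no test.

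**Figure D4:**
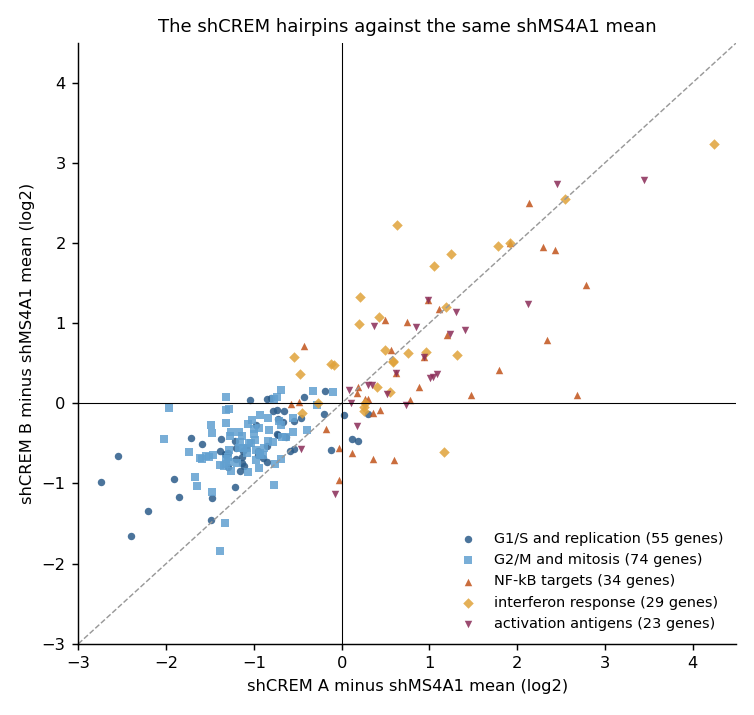
For each measured member of 5 gene lists, the level on shCREM A (x axis) and on shCREM B (y axis) minus the same shMS4A1 mean (log2). The dashed line marks equal values, and sharing a baseline makes the points align in part. Most cell cycle genes lie below 0 on both axes but above the dashed line, that is, lower under A than under B.

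In all, 673 genes differed by at least 1 log2 between hairpins A and B. The 5 largest such differences belonged to genes that did not pass the comparison of the groups. TEX19 read 6.27 log2 on A and 9.92 on B, CNIH1 8.04 and 11.02, and SELENOT 6.15 and 8.90. CDKN3, a phosphatase of cyclin-dependent kinases, read 6.58 log2 on A and 10.07 on B, against 10.62 to 10.94 on the shMS4A1 arrays, and so carried the most negative mean difference of any gene (-2.42 log2) without passing (limma adjusted p = 0.073). RASSF4 went the other way, with 8.35 log2 on A and 5.68 on B. In these 5 genes a single shCREM hairpin stood apart from its partner by more than the partner did from at least 1 shMS4A1 array.

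The shNTC array gives a rough position for each gene on a scale on which 0 is the shMS4A1 mean and 1 the shCREM mean. It is 1 array, so no gene is tested against it. For the 240 higher genes its median position was 0.52, and it was nearer the shCREM mean in 129 of them. For the 312 lower genes it was 0.28, and the array was nearer the shMS4A1 mean in 256. The gene groups differed in this respect. The NF-kB targets that passed had a median position of 0.98 and were all nearer shCREM (10 of 10), as were the interferon genes (8 of 8, median 0.85) and the class II genes (5 of 5, median 0.99). The activation antigens lay at 0.68. The replication genes that passed lay at 0.21, with 22 of 23 nearer shMS4A1, and the mitotic genes at 0.22, with 26 of 26. In values, the median NF-kB target that passed was 0.02 log2 above shNTC under shCREM and 1.81 log2 below it under shMS4A1, and the median replication gene that passed was 0.79 log2 below shNTC under shCREM and 0.25 log2 above it under shMS4A1. Over all measured members, passed or not, the NF-kB list stood at -0.14 log2 from shNTC under shCREM and -0.66 log2 under shMS4A1, and the replication list at -0.57 and 0.14 log2. The positions use the same array for every gene, so an error of that array would move many genes together.

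**Figure D5:**
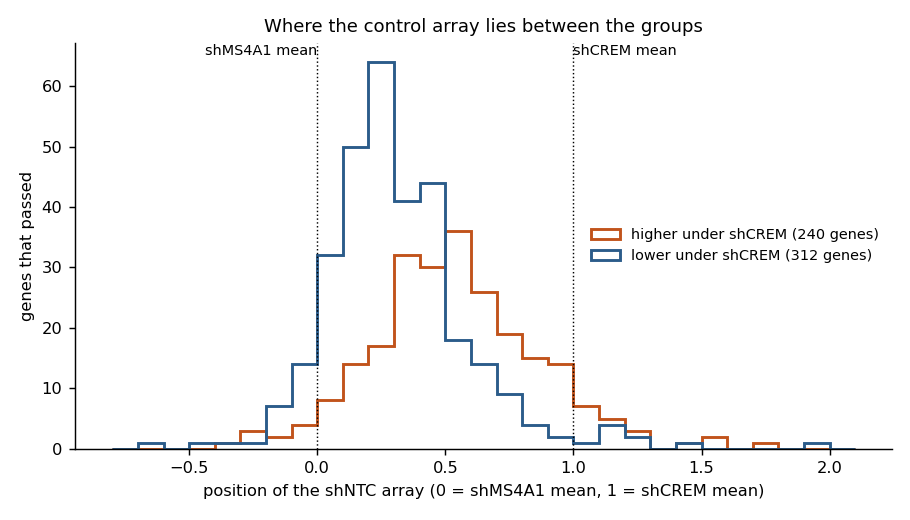
Position of the shNTC array (x axis, 0 at the shMS4A1 mean and 1 at the shCREM mean) for the genes that passed, as the number of genes in bins of 0.1 (y axis). The lower genes gather near the shMS4A1 mean (median 0.28) and the higher genes midway (median 0.52).

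Where a gene that passed had further probes, they can be set beside the chosen one. Of 238 further probes, 217 differed in the same direction and 91 also passed when every probe was tested, while none passed in the opposite direction. For BCL2, probe ILMN_1801119 gave 1.72 log2 beside 1.64 log2 at the chosen probe, and probe ILMN_2363250, near background, gave -0.14 log2. For CD69, the dimmer probe ILMN_1651316 gave 1.56 log2 beside 2.60 log2. For ADAMDEC1, the dimmer probe ILMN_1716909 gave 1.11 log2, short of the threshold (limma adjusted p = 0.084).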

How the data were processed

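Of 12 Illumina BeadChip arrays, 5 entered the comparison. Per the file headers, the authors deposited for each array a raw probe intensity, not normalized, with a detection p-value, and a second table of intensities that they had normalized. No source used here names the array reading software. The tables name probes differently and were joined through the rank profiles of the probes across the 12 arrays, which gave a unique partner to each of the 48105 probes without a missing value. Symbols were those of the platform annotation (30113 probes with 1 symbol, 8 with several, 17984 with none).

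From the raw intensities and detection p-values, log2 levels were computed with neqc (limma 3.58.1, R 4.3.3; offset 16) over the 6 arrays of the set. Probes with a detection p-value under 0.05 on at least 2 of the 5 arrays were kept (21750 probes), and the brightest named probe stood for each gene. limma's linear model with an empirical Bayes intensity trend was fitted to the 5 arrays, two-sided, with Benjamini-Hochberg adjustment over 11495 genes and a threshold of 0.05. Errors after ± are its standard errors, and a gene "passed", "rose" or "fell" under shCREM relative to shMS4A1 by this test. Precision is limited by the few arrays. The procedure was tested on simulated data with independent noise at each gene's observed spread. It recovered 12.5% of true differences of 1 log2 and 83.5% of those of 2 log2, with 0 and 4 false calls. A gene that did not pass may therefore still differ. In addition, 18 alternative analyses were run.

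The comparison, the members and the 27 gene lists were chosen with earlier results of these data known. Of 821 listed genes 674 were measured. The rule for naming genes took the targets and RGS1, SLAMF1, CCNA2 and RRM2. To these it added the 12 largest differences and the 8 widest gaps between groups in each direction among genes that passed and whose groups did not overlap. It also took the 4 smallest p-values of each list and the 5 largest differences between the shCREM hairpins. Other genes named here were chosen after their values were seen.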

Additional observations from a re-analysis of the deposited data

How the results depend on the processing

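Neither the filter nor the background correction changed the direction of any of the 552 genes, but their number moved. A filter leaves a gene's levels as they are unless another probe is chosen, so it had little room to change a direction. Without a filter on dim probes 257 genes passed (123 higher, 134 lower), with all 12 arrays in the fit 915 (427 and 488), without the intensity trend 86 (48 and 38). With a replicate block for the hairpin letter, 152 passed (84 and 68). The letters name hairpins against different genes. Deviations from the group means correlated at -0.0068 for A and -0.03 for B. With 2 shCREM arrays the deviations of A and B are exact opposites, so these values cannot settle whether the letters pair the samples. Without 1 array at a time the number ran from 68 to 1203, with 40 to 494 higher and 26 to 709 lower. Fewer arrays leave fewer degrees of freedom, equally many whichever array is left out. Without a shCREM array the spread comes from shMS4A1 alone. Why the number differed with the array left out was not tested. The share of higher genes was 43.5% and rose to 61.8% without shMS4A1 C. In the other 9 analyses (normalization over 5 or 12 arrays, the authors' processed values, no background correction, an offset of 50, 2 stricter filters, every probe tested, the mean of a gene's probes) 529 to 650 passed. MS4A1 passed in all 18 (limma adjusted p from 3.66e-05 to 0.00771), and CREM in none of the 16 that kept it (0.335 to 0.854). SELENOT, which had not passed, turned to 0.81 log2 without shCREM A (limma adjusted p = 0.0465) and was -1.93 log2 without shCREM B. Probes near background, CREM among them, limit what can be read, since levels under the floor of detection have no order.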

Other observations

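The genes in this section were picked after their values were seen. Among genes outside the lists, 3 enzymes that break down aromatic amino acids passed as higher under shCREM. KYNU (kynureninase) read 7.90 and 7.01 log2 on shCREM A and B against 4.75, 5.73 and 5.60 on shMS4A1 A, B and C, with detection on 2 of the 3 (limma adjusted p = 0.0127). KMO (kynurenine monooxygenase) read 6.67 and 7.05 log2 against 4.84, 5.91 and 4.67, also detected on 2 of the 3 (limma adjusted p = 0.0267). IL4I1, a secreted amino acid oxidase, read 6.57 and 5.40 log2 against 4.52, 4.74 and 4.48 and was detected on no shMS4A1 array (limma adjusted p = 0.0429). The chemokine copies CCL3L3, CCL3L1 and CCL4L1 were 2.05, 1.95 and 2.07 log2 higher, and their probes may catch one another's transcripts and those of CCL3. The probes for SNORD3A, SNORD3C and SNORD3D, copies of the U3 small nucleolar RNA, were 1.45, 1.59 and 1.38 log2 higher. MYB and TCL1A, a transcription factor of dividing blood cells and an oncogene of B cells, were -1.38 and -1.40 log2.

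Of the 21750 kept probes, 6322 carry no symbol. In a fit over all kept probes, 162 of these passed, 92 higher and 70 lower under shCREM.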
